A study of Mus musculus with 48 samples.

Results

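The 10 genes described here are immediate early genes: Fos, Fosb, Junb, Egr1, Egr2, Arc, Npas4, Nr4a1, Dusp1 and Ier2. They were chosen by mouse gene symbol, as 10 of the 48709 genes in the count tables. All 10 passed the filter on low counts in every comparison. Bulk RNA-seq had been done on brain tissue labelled dentate gyrus from 46 mice in 8 groups, to ask how loss of Formin 2 (Fmn2, an actin nucleator) and an amyloid transgene bear on gene expression. All mice were C57BL/6J by their labels and male by the study's methods, and the Fmn2-/- allele is constitutive. At 3 months there were 5 Fmn2+/+ and 5 Fmn2-/- mice, and at 8 months 3 Fmn2+/+ and 5 Fmn2-/- mice, none with the APP transgene. Another set, labelled 3 months, held 7 mice labelled FMN2-/-_APP and 9 labelled FMN2 +/+ APP, so that both groups carried APP and none lacked it. The last set, labelled 4 months, held 6 APP and 6 wild type mice. The labels name this transgene only as APP. The study's amyloid line expresses mutant human APP and presenilin in neurons from the Thy1 promoter.

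Immediate early genes are transcribed within minutes of a strong synaptic input, from factors already present in the cell, and their RNAs decay within hours. Calcium entry and the MAP kinase ERK act on CREB, bound at CRE sites, and on serum response factor with its ETS partners, bound at CArG boxes. In the dentate gyrus few granule cells are active at a time, and Fos, Arc and Egr1 are the usual marks of such cells. What the mice did before dissection was not given in the sources used here.

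The 250 bases upstream of a gene's start hold part of what drives such genes, and members that move together invite a look at shared letters there. RefSeq windows on GRCm38.p6 were matched for 7 of the 10 members: Fos, Fosb, Junb, Egr2, Npas4, Nr4a1 and Dusp1. Starts are those of RefSeq transcripts, and the windows of Npas4, Nr4a1 and Dusp1 lie inside the gene spans given below, which come from another annotation. Searched on both strands were the CRE core TGACG, the full CRE TGACGTCA (which holds 2 overlapping cores) and the GC box CCCGCCC. So were the ETS motif CCGGAA and the CArG box by its usual consensus. The shorter GGAA within the ETS motif was not searched alone, and some windows below hold it outside CCGGAA. The CRE core was found in 6 of the 7 windows, all but that of Egr2, and in 17.9% of all 32536 promoter windows of the same length. The GC box was in 5 of 7 against 23.6%, the ETS motif CCGGAA in 1 of 7 against 12.1%, the full CRE in 1 of 7 against 1.56%, and the CArG box in 0 of 7 against 1.48%. A match of letters is a description and not a shown site. Sites outside these 250 bases were not searched, and Egr1, Arc and Ier2 had no window, so a motif not found here may lie elsewhere. The 4 windows below have the most cores, printed 5′ to 3′ on the gene's strand, with every match of a searched motif in capitals (CGTCA and GGGCGGG are the CRE core and the GC box on the other strand). Cores start 129 and 66 bases before the start of Fos, at chr12:85473640-85473889 on the plus strand. In Npas4 they lie at 179 and 169 bases, at chr19:4989972-4990221 on the minus strand. Nr4a1, at chr15:101266596-101266845 on the plus strand, has 4 cores, at 233, 213, 69 and 40 bases. Dusp1, at chr17:26508473-26508722 on the minus strand, has a core at 191 bases and the full CRE at 143 bases.
Fos: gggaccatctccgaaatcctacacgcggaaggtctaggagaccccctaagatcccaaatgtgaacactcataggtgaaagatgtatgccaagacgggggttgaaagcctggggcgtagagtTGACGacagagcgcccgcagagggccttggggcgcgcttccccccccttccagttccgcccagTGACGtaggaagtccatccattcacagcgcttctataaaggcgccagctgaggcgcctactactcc
Npas4: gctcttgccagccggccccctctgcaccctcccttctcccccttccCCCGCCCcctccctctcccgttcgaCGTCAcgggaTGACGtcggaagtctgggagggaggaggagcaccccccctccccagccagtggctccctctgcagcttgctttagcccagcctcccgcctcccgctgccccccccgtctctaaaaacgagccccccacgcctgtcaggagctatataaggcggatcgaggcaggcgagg
Nr4a1: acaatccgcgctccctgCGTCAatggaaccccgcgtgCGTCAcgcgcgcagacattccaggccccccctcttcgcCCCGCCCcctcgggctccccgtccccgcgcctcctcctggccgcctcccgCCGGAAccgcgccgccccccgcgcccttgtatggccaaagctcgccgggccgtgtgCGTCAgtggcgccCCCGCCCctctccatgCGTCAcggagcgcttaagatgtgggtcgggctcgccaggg
Dusp1: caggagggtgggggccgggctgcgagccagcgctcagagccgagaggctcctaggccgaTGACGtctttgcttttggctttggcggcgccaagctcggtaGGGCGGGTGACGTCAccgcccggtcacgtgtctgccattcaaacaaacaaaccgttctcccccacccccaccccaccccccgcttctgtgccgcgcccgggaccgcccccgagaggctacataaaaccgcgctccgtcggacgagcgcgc

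Values are given as CPM, a gene's counts over its library's total in units of 1000000 counts, with edgeR's TMM factors over all 46 mice. A gene was called where edgeR's quasi-likelihood test gave a Benjamini-Hochberg adjusted p under 0.05 over all genes tested and a log2 fold change of at least 0.25, or 0.5 in the APP comparisons, in size. Totals ran from 6818809 to 43921030 counts per mouse, and from 6818809 to 11675280 in 7 of the 8 8-month mice. The targeted gene went with its label in the 18 Fmn2 mice, with 93.2 to 113 CPM in the 3-month Fmn2+/+ mice, 23 to 28.1 CPM in the 3-month Fmn2-/- mice, 75.5 to 103.3 CPM in the 8-month Fmn2+/+ mice and 20.9 to 27.3 CPM in the 8-month Fmn2-/- mice. It went against the labels in the APP cross, with 84.2 to 103.7 CPM in the libraries labelled FMN2-/-_APP and 19.2 to 24.2 CPM in those labelled FMN2 +/+ APP. The summed dentate granule cell markers were 686 to 1320 CPM in the 34 mice outside the 4-month set and 163 to 208 CPM in the 4-month libraries, whose cortical layer markers summed to 622 to 707 CPM against 120 to 365 CPM. The 4-month libraries thus went against the dentate gyrus label, and their sample titles name PFC. Choroid plexus markers summed to 9260 and 6039 CPM in replicates 4 and 5 labelled FMN2 +/+ APP, and to 4265 CPM in 3-month Fmn2-/- replicate 4, and stayed under 1000 CPM elsewhere. Each library is treated as 1 mouse, and p-values measure the spread between libraries.

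Arc and Egr1 were the most abundant members per length, and Fosb and Egr2 the least. In the 3-month Fmn2+/+ mice the mean level in RPKM, the CPM divided by exon length in kilobases, was 49.7 for Arc, 34.6 for Egr1, 14.8 for Nr4a1, 13.2 for Fos, 13.2 for Junb, 9.73 for Dusp1, 4.55 for Npas4, 3.39 for Ier2, 1.98 for Egr2 and 1.53 for Fosb. Arc and Egr1 also led in the 4-month wild type libraries, at 93.8 and 83.7 RPKM. Across groups the median CPM of Fos was highest in the 4-month wild type (33.4), then 4-month APP (28), 3-month Fmn2+/+ (26.5), 3-month Fmn2-/- (17.4), the libraries labelled FMN2 +/+ APP (10.9), 8-month Fmn2-/- (9.38), 8-month Fmn2+/+ (6.28) and the libraries labelled FMN2-/-_APP (5.67). Every pair of neighbours in that order overlapped in range, and the within-group highest value was 2.93 to 11.8 times the lowest.

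**Figure D1:**
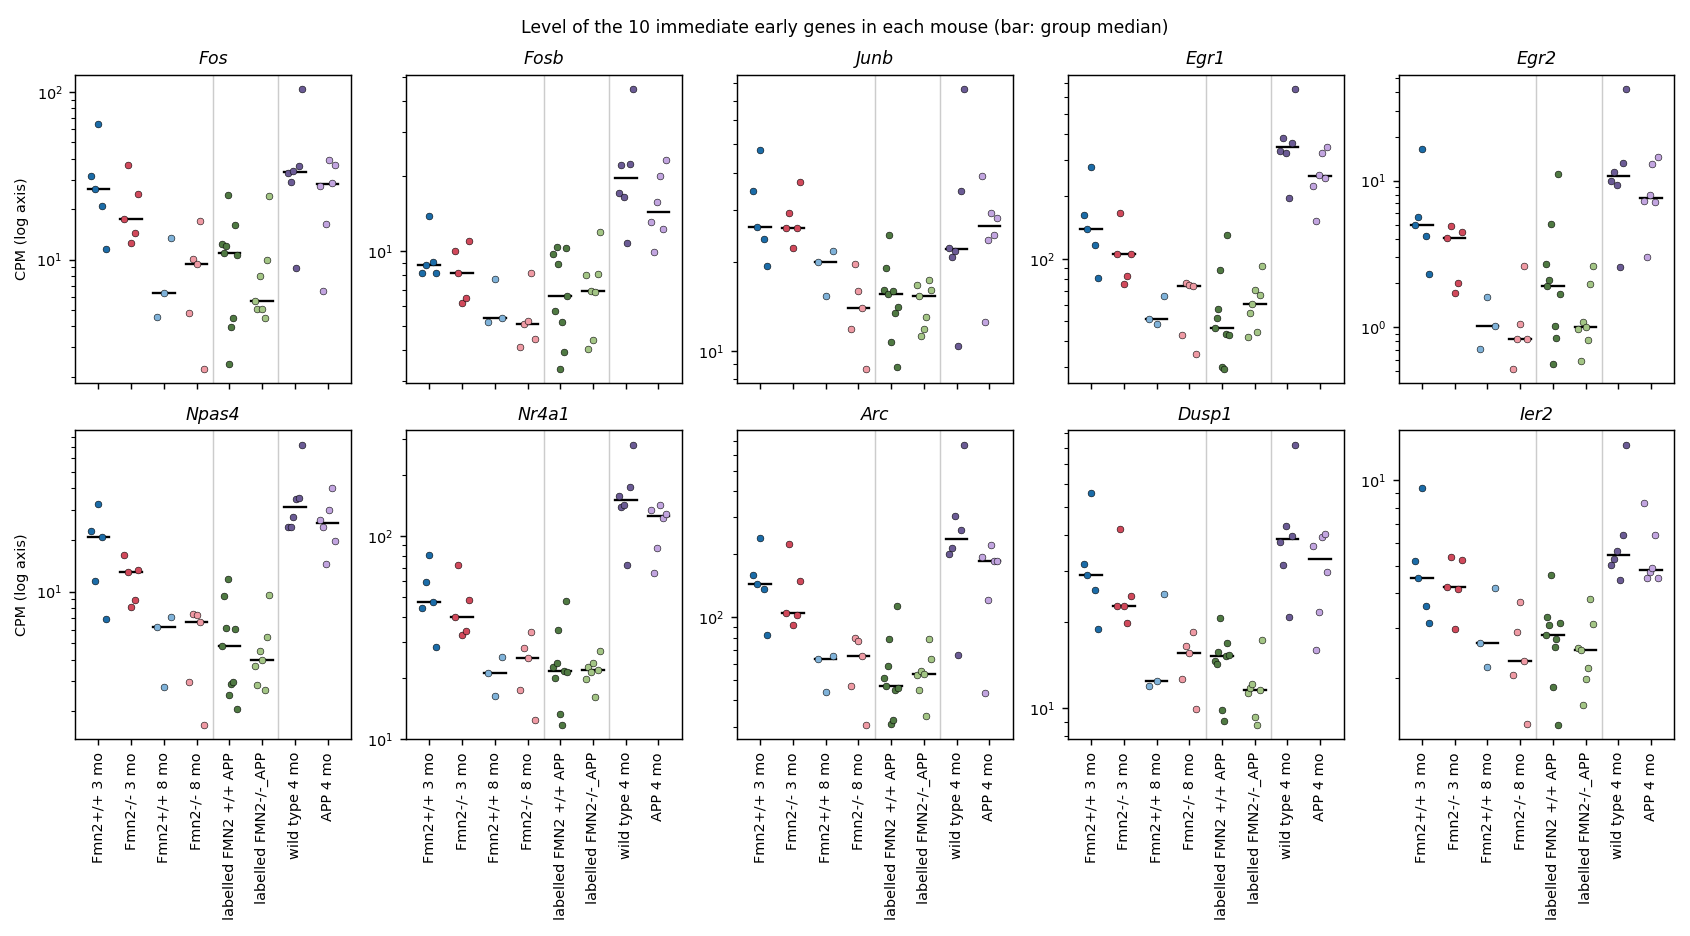
Level of each of the 10 members in every mouse, in CPM on a log axis, by group. Points are mice and short lines are group medians, and the medians of the 8-month Fmn2 groups and the APP cross lie below those of the 3-month Fmn2 and the 4-month groups for all 10 members.

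Fos (ENSMUSG00000021250, chr12:85473890-85477273 on mm10) encodes a partner of Jun proteins in the AP-1 transcription factor. At 3 months Fos was at 31.4, 26.5, 64.4, 21.0 and 11.5 CPM in the 5 Fmn2+/+ mice and at 17.4, 36.9, 12.6, 14.5 and 24.6 CPM in the 5 Fmn2-/- mice. At 8 months it was at 4.51, 6.28 and 13.4 CPM in Fmn2+/+ mice and at 4.83, 10.1, 9.38, 16.9 and 2.21 CPM in Fmn2-/- mice. The genotypes overlapped at both ages, and the 8-month values lay low. At 8 months 1 Fmn2+/+ mouse (13.4 CPM) and 1 Fmn2-/- mouse (16.9 CPM) were above the lowest 3-month value of their genotype.

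Fosb (ENSMUSG00000003545, chr7:19302696-19310051), a second AP-1 Fos protein, spread less, with 8.15 to 13.8 CPM at 3 months and 5.20 to 7.74 CPM at 8 months in Fmn2+/+ mice, which did not overlap. In Fmn2-/- mice it ran from 6.22 to 11 CPM at 3 months and from 4.11 to 8.14 CPM at 8 months. Junb (ENSMUSG00000052837, chr8:84974484-84978718), an AP-1 Jun protein, was at 34.7, 26.2, 47.6, 23.9 and 19.4 CPM in the 3-month Fmn2+/+ mice and at 25.9, 29.1, 22.2, 26 and 37.3 CPM in the 3-month Fmn2-/- mice. The 8-month Fmn2+/+ mice had 20, 15.3 and 21.8 CPM of Junb, and the 8-month Fmn2-/- mice 11.8, 19.7, 15.9, 14 and 8.65 CPM. Here the Fmn2-/- ages separated and the Fmn2+/+ ages overlapped. Of its 2301 exon bases 173 (7.52%) overlap Prdx2 on the other strand, and whether counting used strand was not stated.

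Egr1 (ENSMUSG00000038418) encodes a zinc finger transcription factor tied to lasting synaptic plasticity. It was at 163, 139, 277, 116 and 81.1 CPM in the 3-month Fmn2+/+ mice and at 104.9, 167, 75.3, 82.4 and 105.6 CPM in the 3-month Fmn2-/- mice. At 8 months the Fmn2+/+ mice had 51.0, 48.3 and 66.2 CPM of Egr1 and the Fmn2-/- mice 42.8, 76.0, 74.6, 73.9 and 34.6 CPM. All 3 8-month Fmn2+/+ mice lay below all 5 at 3 months, while in Fmn2-/- mice the highest 8-month value was just above the lowest 3-month one.

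Egr2 (ENSMUSG00000037868, chr10:67535475-67542188), a second zinc finger factor of the family, was at 4.94, 5.67, 16.5, 4.21 and 2.32 CPM in the 3-month Fmn2+/+ mice and at 4.03, 4.93, 1.71, 1.99 and 4.43 CPM in the 3-month Fmn2-/- mice. At 8 months it was at 0.711, 1.61 and 1.01 CPM in Fmn2+/+ mice and at 0.514, 0.834, 1.05, 2.63 and 0.828 CPM in Fmn2-/- mice. These 8-month levels rest on 29, 11 and 9 counts in Fmn2+/+ mice and on 5 to 32 counts in Fmn2-/- mice. The Fmn2+/+ ages did not overlap.

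Npas4 (ENSMUSG00000045903, chr19:4984355-4990316) encodes a factor induced by calcium entry in neurons. It was at 22.6, 11.5, 32.4, 20.8 and 6.88 CPM in the 3-month Fmn2+/+ mice and at 16.4, 13, 8.15, 8.92 and 13.4 CPM in the 3-month Fmn2-/- mice. At 8 months Npas4 was at 6.20, 2.77 and 7.09 CPM in Fmn2+/+ mice and at 2.98, 7.40, 7.27, 6.66 and 1.66 CPM in Fmn2-/- mice. All 5 Fmn2-/- mice at 8 months were below all 5 at 3 months.

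Nr4a1 (ENSMUSG00000023034, chr15:101254269-101274795) encodes an orphan nuclear receptor. It was at 44.3, 59.7, 80.8, 47.4 and 28.3 CPM in the 3-month Fmn2+/+ mice and at 40.1, 72.1, 32.4, 34.2 and 48.7 CPM in the 3-month Fmn2-/- mice. The 8-month Fmn2+/+ mice had 21.2, 16.4 and 25.3 CPM of Nr4a1, all below the 3-month range, and the 8-month Fmn2-/- mice 17.4, 28, 25, 33.7 and 12.5 CPM, 1 of them inside it.

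Arc (ENSMUSG00000022602, chr15:74669083-74672570) encodes a postsynaptic protein that takes part in the removal of AMPA receptors. Its levels were 160, 144, 238, 136 and 82.1 CPM in the 3-month Fmn2+/+ mice and 104.7, 225, 91.8, 102.3 and 150 CPM in the 3-month Fmn2-/- mice. At 8 months Arc was at 63.4, 44.0 and 65.3 CPM in Fmn2+/+ mice and at 46.8, 79.2, 76.8, 65.6 and 30.4 CPM in Fmn2-/- mice. Arc was the one member whose ages did not overlap in either genotype.

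Dusp1 (ENSMUSG00000024190, chr17:26505590-26562128) encodes a phosphatase that switches MAP kinases off again. It ran from 18.9 to 55.7 CPM at 3 months and from 12 to 25 CPM at 8 months in Fmn2+/+ mice, and from 19.8 to 41.9 CPM and from 9.93 to 18.4 CPM in Fmn2-/- mice, whose ages did not overlap. Ier2 (ENSMUSG00000053560, chr8:84661331-84662852), a nuclear protein of the early response, was at 3.13 to 9.37 CPM and 2.19 to 4.16 CPM in Fmn2+/+ mice at 3 and 8 months, and at 2.99 to 5.37 CPM and 1.38 to 3.73 CPM in Fmn2-/- mice. Its ages overlapped in both genotypes.

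The comparison of 8 with 3 months asks how these genes differ with age within a genotype. In Fmn2+/+ mice 6 of the 10 members fell: Egr2 by a log2 fold change of -2.79 (SE 0.663), Fos by -2.01 (SE 0.592), Npas4 by -1.73 (SE 0.467), Egr1 by -1.45 (SE 0.349), Arc by -1.35 (SE 0.345) and Nr4a1 by -1.27 (SE 0.338), with 3 mice against 5. By edgeR their adjusted p were 0.0121, 0.0366, 0.0247, 0.0129, 0.0182 and 0.0229 in that order. Of all 17046 genes tested, 9.21% were called and 3.84% were called lower. The other 4 members had fold changes of -0.96 for Dusp1 (edgeR adjusted p = 0.0694), -0.77 for Ier2 (0.157), -0.66 for Fosb (0.0917) and -0.62 for Junb (0.126) on the log2 scale. All 10 fold changes were below 0, against 47.8% of all genes, and their median was -1.31. In 5 members (Fosb, Egr1, Egr2, Arc and Nr4a1) the ages did not overlap, against 15.4% of all genes. In bulk tissue fewer cells that express a gene and less RNA per cell cannot be told apart.

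In Fmn2-/- mice the same 10 members again had fold changes below 0, against 51.5% of all genes, with a median of -0.88, and 2 of them fell. Junb fell by 0.90 on the log2 scale (SE 0.227, edgeR adjusted p = 0.0176) and Arc fell by 1.06 (SE 0.287, edgeR adjusted p = 0.0257), with 5 mice against 5. Of all genes 6.44% were called and 3.91% were called lower. For the other 8 members the fold changes ran from -1.39 for Egr2 (edgeR adjusted p = 0.123) to -0.52 for Fosb (0.147), and Nr4a1 had the smallest adjusted p among them at 0.0644. The ages did not overlap in 4 members (Junb, Npas4, Arc and Dusp1), against 13.2% of all genes.

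Whether the ages differed by another amount in Fmn2-/- than in Fmn2+/+ mice was tested as the age by genotype interaction. None of the 10 members was called, against 3.73% of all genes, and 0 had an unadjusted p under 0.05 by edgeR. The difference was 1.40 for Egr2 (95% interval -0.43 to 3.23, edgeR adjusted p = 0.347), 0.85 for Fos and 0.74 for Egr1 (edgeR adjusted p = 0.327). Junb had the one value below 0, at -0.28 (95% interval -0.99 to 0.44), where 52.9% of all genes were below 0. The intervals are wide, so the 6 members called in one genotype and the 2 in the other are not shown to differ between genotypes.

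**Figure D2:**
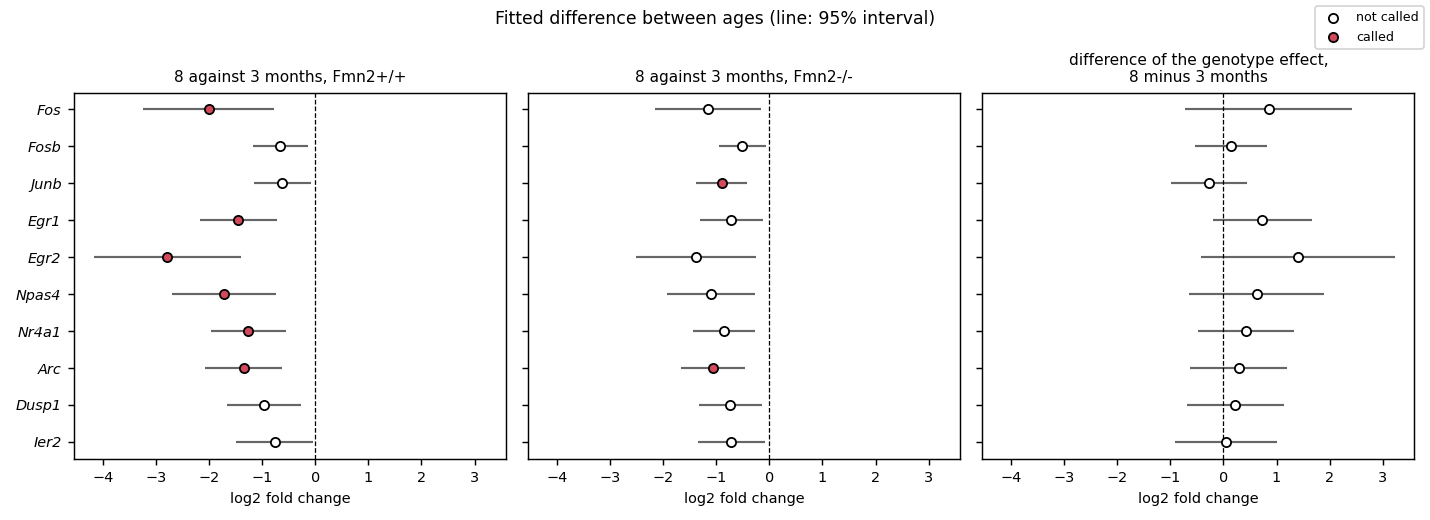
Fitted log2 fold change of each member at 8 against 3 months in Fmn2+/+ and in Fmn2-/- mice, and the difference of the genotype effect between the ages, with 95% intervals and called members filled. In both genotypes all 10 points lie below 0, with 6 and 2 called, and every interval of the difference crosses 0.

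Age went with the lane number in the sample titles: all 3-month Fmn2+/+ libraries were in lane 5, the 3-month Fmn2-/- libraries in lanes 5 and 6, and 7 of the 8 8-month libraries in lane 7. With lane as a covariate the medians were -1.60 in Fmn2+/+ and -1.02 in Fmn2-/- mice, and 0 members were called in either, with 6 and 2 at an unadjusted p under 0.05. In that fit 6 and 0 of all 18209 genes were called. Within a group, lane differed only for 3-month Fmn2-/- replicate 1 and 8-month Fmn2+/+ replicate 1. The fit rests on these libraries and cannot tell lane and age apart. Lane 6 alone held both ages, with 1 8-month Fmn2+/+ mouse against 4 3-month Fmn2-/- mice, so that genotype differed there too. That mouse lay below all 4 in 10 of 10 members, where 20.1% of all genes did so. It is 1 library, and the members vary together between mice, so these are not 10 separate results. For example, Egr1 was at 51.0 CPM in that mouse against 75.3 to 167 CPM, and Fos at 4.51 CPM against 12.6 to 36.9 CPM. The calls in Fmn2+/+ mice came to 0 without replicate 1 at 8 months, and to 3 without replicate 3 at 3 months or without replicate 3 at 8 months. In Fmn2-/- mice they came to 0 without replicate 6 at 3 months or replicate 5 at 8 months, and to 1 without replicate 2 at 3 months or replicate 1 at 8 months. With length and GC offsets 6 members were called in Fmn2+/+ and 0 in Fmn2-/- mice, and at equal depth 6 and 2. Cortical layer markers had fold changes below 0 with age as well, at a median of -0.41 in Fmn2+/+ mice (6 of 6 below 0, 0 called) and -0.22 in Fmn2-/- mice (5 of 6, 0 called), and their part in the result was not tested. Choroid plexus markers had a median of 1.28 in Fmn2+/+ and -0.99 in Fmn2-/- mice, none called, and without the library high in them 6 and 3 members were called.

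The APP cross mice, labelled 3 months, had levels near those of the 8-month Fmn2 mice. Egr1 had a median of 60.2 CPM in the libraries labelled FMN2-/-_APP and 46.5 CPM in those labelled FMN2 +/+ APP, against 51 and 73.9 CPM in 8-month Fmn2+/+ and Fmn2-/- mice and 139 and 104.9 CPM at 3 months. Arc had medians of 53.4 and 46.9 CPM in the cross, 63.4 and 65.6 CPM at 8 months and 144 and 104.7 CPM at 3 months. Libraries with lane number 5 came from 6 cross mice and from 5 Fmn2+/+ and 1 Fmn2-/- mice of 3 months. The lane is known only by its number, which need not mean the same sequencing run in both sample sets. Among these libraries 5 members (Junb, Egr1, Arc, Nr4a1 and Dusp1) were lower in every cross mouse, where 9.87% of all genes were. In lane 5 Egr1 was at 42.2 to 60.2 CPM against 81.1 to 277 CPM, and Arc at 45.1 to 58.5 CPM against 82.1 to 238 CPM. Lane number 6 covered 6 cross mice and 4 3-month Fmn2-/- mice but none of the Fmn2+/+ mice of that age. There only 1 of 10 members, Arc, was lower in every cross mouse, against 9.95% of all genes. The cross differs from the Fmn2 mice by the transgene, by its sample set and, within these lanes, by the mix of Fmn2 genotypes, which cannot be told apart.

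Genotype at 3 months was compared in 5 Fmn2-/- against 5 Fmn2+/+ mice. None of the 10 members was called by edgeR, and 0 had an unadjusted p under 0.05, while 0.0301% of 16630 genes were called. All 10 fold changes were below 0, against 48.9% of all genes, with a median of -0.29. Egr2 had the largest, at -1.0 (SE 0.467, 95% interval -2.02 to 0.01, edgeR adjusted p = 0.477), followed by Npas4 at -0.67 (SE 0.344), Fos at -0.57 (SE 0.401) and Egr1 at -0.56 (SE 0.292). Arc, at -0.20, and Junb, at -0.13, had the smallest together with Nr4a1 and Fosb, both at -0.22. The groups overlapped in all 10 members, where 2.97% of all genes did not overlap. Fmn2+/+ replicate 3, the highest of its group for all 10 members, moved the median: without it the median was -0.045 and 7 of 10 were below 0. Without Fmn2+/+ replicate 5, the lowest of its group for all 10 members, 4 members had an unadjusted p under 0.05 and 0 were called. Lane nearly coincided with genotype: all Fmn2+/+ libraries were in lane 5, and all Fmn2-/- libraries but replicate 1 in lane 6. With lane as a covariate the median was -0.46, with 9 of 10 below 0. That fit rests on Fmn2-/- replicate 1, so lane and genotype cannot be told apart.

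At 8 months, with 5 Fmn2-/- against 3 Fmn2+/+ mice, the fold changes lay on both sides of 0. None of the 10 members was called by edgeR and 0 had an unadjusted p under 0.05, against 1.13% of 14665 genes called. Junb was at -0.40 (SE 0.206, 95% interval -0.84 to 0.05, edgeR adjusted p = 0.265), Egr2 at 0.42 and Fos at 0.26 on the log2 scale. The median was 0.039, with 5 of 10 below 0 where 48.8% of all genes were, and no member separated the groups against 11.1% of all genes. The related AP-1 gene Jund, from a list of other rapid response genes, was called at -0.71 (SE 0.12, edgeR adjusted p = 0.03), in 6 of 17 alternatives.

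The libraries labelled FMN2-/-_APP were set against those labelled FMN2 +/+ APP, 7 against 9, with Fmn2 itself higher in the former by 2.15 on the log2 scale (edgeR adjusted p = 2.83e-14), so directions follow the labels and not the Fmn2 level. None of the 10 members was called, against 0.774% of 16656 genes. Egr2 ran from 0.585 over a median of 1 to 2.6 CPM in the libraries labelled FMN2-/-_APP and from 0.558 over a median of 1.91 to 11.1 CPM in those labelled FMN2 +/+ APP. Its fold change was -1.21 (SE 0.543, 95% interval -2.35 to -0.07, edgeR adjusted p = 0.27), the one member with an unadjusted p under 0.05, at 0.039. Replicate 8 labelled FMN2 +/+ APP was the library at 11.1 CPM, where the next had 5.05 CPM. Without it 0 members had an unadjusted p under 0.05. The same was so with lane as a covariate and without replicate 4 labelled FMN2 +/+ APP. It was also so without any 1 of replicates 1 to 5 labelled FMN2-/-_APP. Blocking by replicate number gave 0 as well, but that fit left out replicates 8 and 9 labelled FMN2 +/+ APP. It is therefore not a check separate from the removal of replicate 8. Over all alternatives the Egr2 value ran from -1.49 to -0.46. Dusp1 followed at -0.32 (SE 0.164, edgeR adjusted p = 0.337). The other 8 members lay between -0.28 for Fos and 0.09 for Egr1, the median was -0.15, and 8 of 10 were below 0 where 48.3% of all genes were. No member separated the groups, against 0.498% of all genes. Without the libraries high in choroid plexus markers the median was -0.09, with 9 of 10 below 0 and 0 called. Without replicate 4 labelled FMN2 +/+ APP alone it was -0.0028, with 5 of 10 below 0.

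In the 4-month libraries the question was how the APP transgene alone bears on these genes, with 6 APP against 6 wild type mice. Egr1 ran from 197 over a median of 345 to 661 CPM in wild type mice and from 151 over 249 to 347 CPM in APP mice. Arc ran from 66.3 over 238 to 670 CPM and from 43.2 over 186 to 221 CPM. Nr4a1 ran from 72.1 over 150 to 282 CPM and from 66 over 126 to 142 CPM. In each the APP median was lower and the groups overlapped. The fold changes were -0.55 for Egr1 (SE 0.219, 95% interval -1.01 to -0.09, edgeR adjusted p = 0.241), -0.86 for Arc (SE 0.401, edgeR adjusted p = 0.341) and -0.51 for Nr4a1 (SE 0.232, edgeR adjusted p = 0.325). These 3 had an unadjusted p under 0.05, at 0.0228, 0.0468 and 0.0421, and 0 of 10 members were called, against 2.34% of 16733 genes. All 10 fold changes were below 0, against 50.2% of all genes, at a median of -0.52, and no member separated the groups, against 3.33% of all genes. One wild type mouse decided much of this: without replicate 6 the median was -0.18, with 8 of 10 below 0 and 0 at an unadjusted p under 0.05. Without wild type replicate 4, the lowest wild type mouse in all members but Npas4, 7 members had an unadjusted p under 0.05 and 0 were called. All wild type libraries were in lane 5 and all APP libraries in lane 7, so lane and genotype cannot be told apart. Microglial markers were higher in APP mice (4 of 5 called, median 0.63) and oligodendrocyte markers had a median of -0.79 (1 of 5 called). Astrocyte markers summed to 1071 to 1253 CPM in APP and 857 to 987 CPM in wild type mice, which did not overlap (1 of 5 called, median 0.06). The part of these 3 lists in the members' values was not tested.

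**Figure D3:**
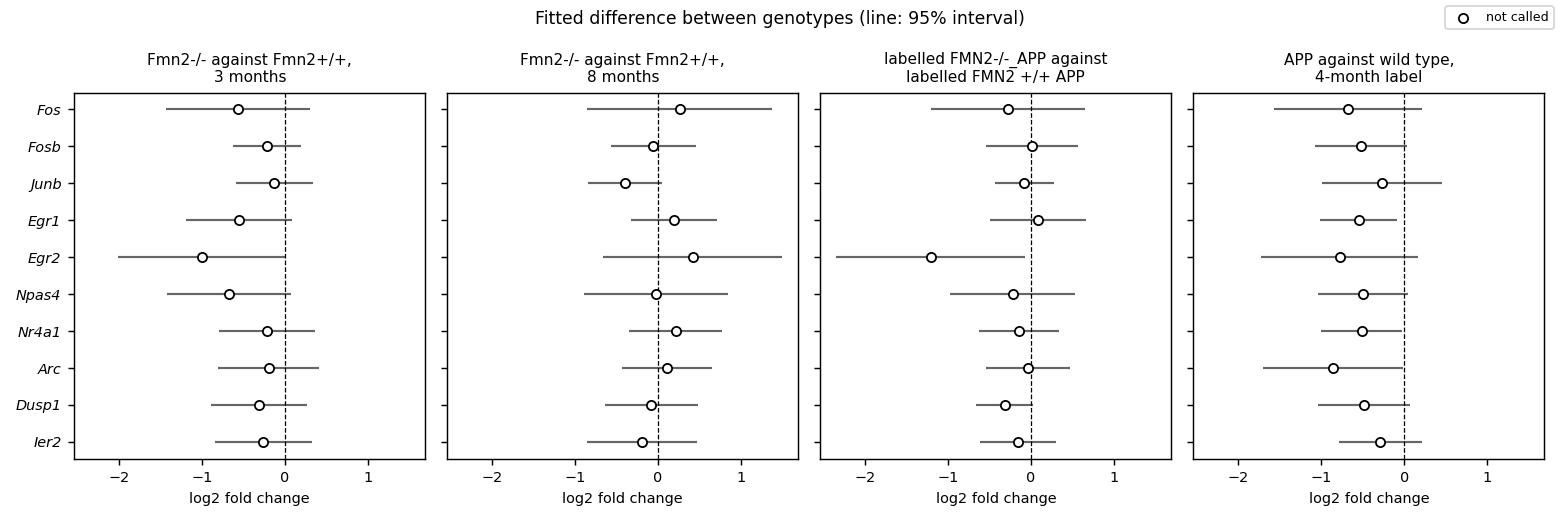
Fitted log2 fold change of each member in the 4 genotype comparisons, with 95% intervals. No member is called in any of the 4, all 10 points lie below 0 in the 3-month Fmn2 and 4-month APP comparisons, and the 8-month points lie on both sides of 0.

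The spread between mice of a group was wide for every member. The SD of the deviations from group means on the log2 scale was 1.01 for Egr2, 0.978 for Fos, 0.729 for Npas4, 0.679 for Arc, 0.543 for Egr1, 0.519 for Junb, 0.517 for Nr4a1, 0.515 for Fosb, 0.481 for Ier2 and 0.475 for Dusp1, where the median of 14436 genes was 0.168. These lie from the 93.9 percentile (Dusp1) to the 99.5 percentile (Fos and Egr2) of those genes. Repeat runs of 2 mice show how much of that arises in sequencing. Fos was at 23.5 and 26.6 CPM in the 2 runs of replicate 7 labelled FMN2-/-_APP and at 4.53 and 4.61 CPM in those of replicate 7 labelled FMN2 +/+ APP. Over the 10 members the median absolute difference between runs was 0.148 on the log2 scale, with the largest 0.548 for Egr2 (24 and 9 counts), against a median SD between mice of 0.564. In 1 of the 20 cases, Junb in replicate 7 labelled FMN2-/-_APP, the runs differed by more (0.267) than the SD between mice (0.254). These are unlike measures: the difference of 2 values is larger than their SD, so this case does not show more spread between runs than between mice. Repeat runs share their library or RNA and hold no dissection or handling.

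**Figure D4:**
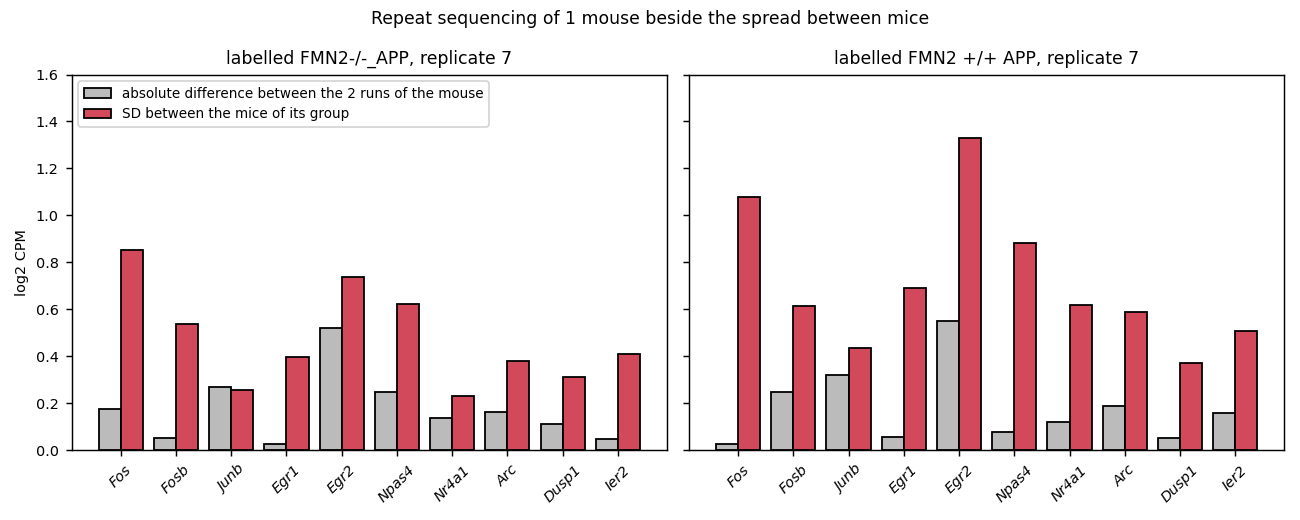
Absolute log2 CPM difference between the 2 sequencing runs of a mouse (grey bars) beside the SD between the mice of its group (red bars), for each member in the 2 mice with repeat runs. The grey bar is lower in all cases but Junb in replicate 7 labelled FMN2-/-_APP, and the 2 bars are unlike measures, a difference and an SD.

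The members varied together from mouse to mouse within groups. Each member's log2 CPM deviation from its group mean was correlated over the 46 mice with the mean deviation of the other 9, each scaled by its own SD, for 10 relations in all. Fos had the highest value, with Pearson's r 0.95 and Spearman's rho 0.96, followed by Arc (0.89, 0.91), Nr4a1 (0.89, 0.88), Dusp1 (0.89, 0.86), Egr1 (0.88, 0.87), Egr2 (0.85, 0.83), Junb (0.75, 0.69), Fosb (0.73, 0.69), Npas4 (0.70, 0.75) and Ier2 (0.65, 0.65). A two-sided permutation test with 100000 resamples within groups gave p = 1e-05, the smallest it can give, for r and rho of 9 members, and 7e-05 and 2e-05 for Ier2. Without the 2 mice farthest from the median, r ran from 0.57 for Ier2 to 0.95 for Fos. Within each of the 4 sample sets every r was above 0, from 0.31 (Ier2 in the APP cross) and 0.34 (Junb there) to 0.99 (Fos at 3 months, Egr1 at 8 months). Egr2 at 0.41 and Fosb at 0.43 were lowest among the 8-month mice, and Npas4 at 0.51 among the 4-month mice. All 45 pairs of members had r above 0, with a median of 0.69, from 0.38 for Fosb with Ier2 to 0.92 for Egr1 with Nr4a1. Values of 1 mouse share a library and its scaling.

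In 25 of 46 mice (54.3%) at least 9 of the 10 members lay on 1 side of the group mean, in 9 mice all 10 above it and in 7 all 10 below it. The mean of the 10 deviations, each in units of its SD, was highest in 4-month wild type replicate 6, at 2.28, and in 3-month Fmn2+/+ replicate 3, at 1.56, and lowest in 4-month wild type replicate 4, at -1.89, and 4-month APP replicate 2, at -1.51. Npas4 stood apart in the lowest wild type mouse, with 34.8 CPM and a log2 deviation of 0.05, where Fos had 8.87 CPM. Replicate 8 labelled FMN2 +/+ APP was split: Egr2 was 2.50, Egr1 1.37, Arc 1.16 and Nr4a1 1.15 above the group mean on the log2 scale, and Junb 0.71 and Ier2 0.94 below it. Its interneuron markers summed to 392 CPM, the lowest of its group, and their part was not tested. This mean had r 0.03 with total count, 0.03 with choroid plexus markers, -0.05 with granule cell markers and 0.15 with cortical layer markers. Over 13 such measures r lay between -0.28 (oligodendrocyte precursor markers) and 0.18 (mural cell markers).

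**Figure D5:**
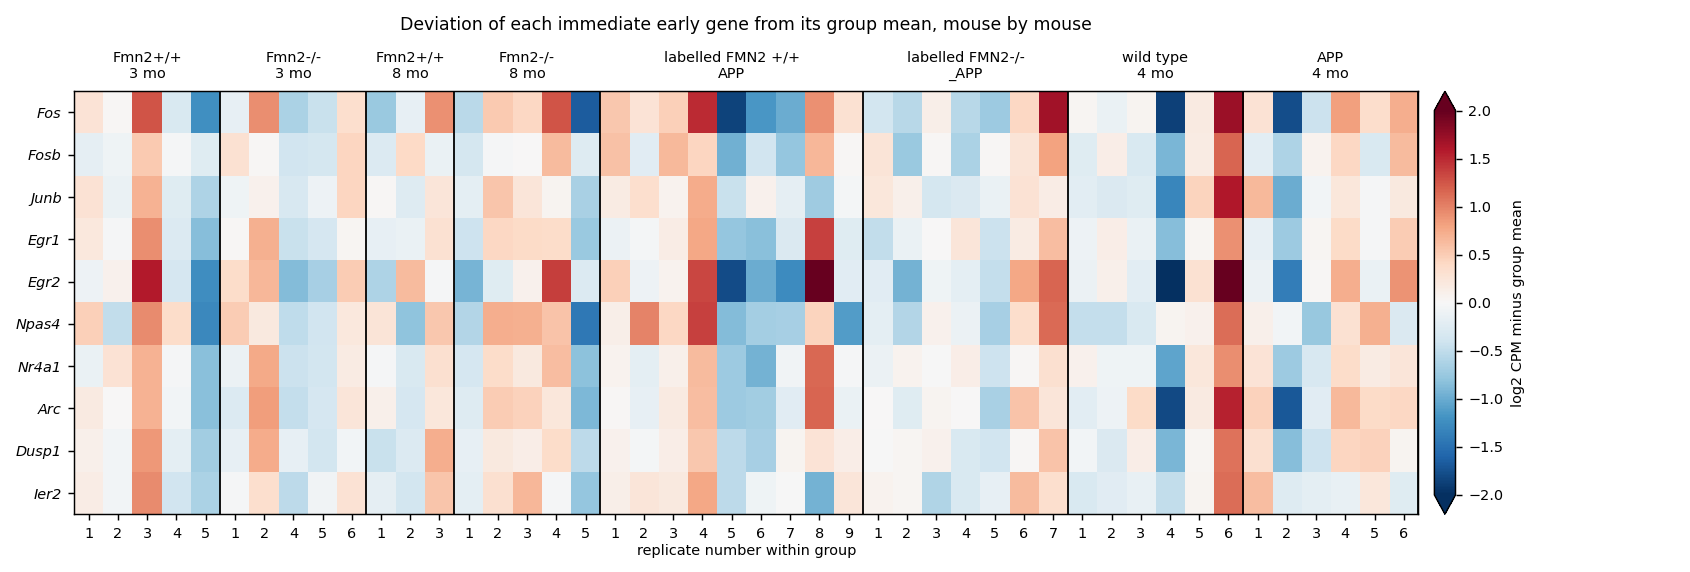
Deviation of each member from its group mean on the log2 scale in each of the 46 mice, with members in rows, mice in columns by replicate number within group and a colour scale that ends at 2. In 25 of 46 columns at least 9 members share 1 sign, as in 4-month wild type replicate 6 and 3-month Fmn2+/+ replicate 3, where all members lie above the mean.

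The genes most like the members were named by their r with this mean over the 46 mice, among 14426 other genes. The highest were the long noncoding RNA 1700016P03Rik (0.80), the salt-inducible kinase Sik1 (0.79), the zinc finger factor Egr4 (0.76), the pseudokinase Trib1 (0.75), the deubiquitinase Otud1 (0.74), the antiproliferative gene Btg2 (0.70), the matrix protein gene Ccn1 (0.70), the small GTPase Arl4d (0.69), Irf2bp2 (0.69) and Tiparp (0.68). Without the 2 farthest mice these values were 0.53 to 0.75. They were not alike in every sample set: at 8 months r was 0.08 for Trib1 and 0.09 for Otud1, and at 3 months 0.03 for Tiparp, where the 4-month mice gave 0.98, 0.95 and 0.92. Of 28 listed other rapid response genes 27 had r above 0, with a median of 0.46. The list of MAP kinase feedback genes had 12 of 14 above 0 (median 0.23), later effectors 15 of 20 (0.14), actin and serum response factor targets 12 of 15 (0.14) and the ERK, ELK and serum response factor pathway itself 13 of 26 (-0.01). Over all other genes 7444 of 14426 were above 0, at a median of 0.01.

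Other genes of the pathway were tested in the same fits. With age in Fmn2+/+ mice 3 of 28 other rapid response genes fell, among them Egr3 (-0.78, SE 0.18, edgeR adjusted p = 0.0111), a zinc finger factor close to Egr2, with Tiparp (-0.37) and the clock gene Per1 (-0.30). The list's median was -0.16, and 3.84% of all genes were called lower. In Fmn2-/- mice 4 of 28 fell: Egr3 (-0.71, SE 0.16, edgeR adjusted p = 0.00901), Zfp36 (-0.64), which marks RNAs for decay, Jund (-0.62) and Sik1 (-0.52), with a list median of -0.19, where 3.91% of all genes were called lower. Zfp36 was called in 7 and Sik1 in 11 of 27 alternatives, and Egr3 and Jund in 25 and 24. The MAP kinase phosphatase Dusp6 fell in Fmn2+/+ mice (-0.47) and Dusp7 in Fmn2-/- mice (-0.29), each 1 of 15 feedback genes. Of 20 later effectors 0 and 1 fell, the latter the secreted neuropeptide precursor gene Vgf (-0.43), at list medians of 0.0045 and -0.011. Of 26 pathway genes Map2k2 rose (0.41) and Rps6ka2 (-0.37) and Rps6ka3 (-0.35) fell in Fmn2+/+ mice, and Mrtfa fell (-0.34) in Fmn2-/- mice. Among 16 actin and serum response factor targets Vcl fell (-0.63) in Fmn2+/+ and Zyx (-0.53) in Fmn2-/- mice. Of all genes 9.21% were called with age in Fmn2+/+ mice and 6.44% in Fmn2-/- mice. The interaction was called for Jund (-0.54), Hras (-0.39), Map2k2 (-0.51) and Rps6ka3 (0.45), in 6, 21, 8 and 19 of 27 alternatives in that order. With the replicate number as a block it was called for 0 of 17217 genes, and with lane as a covariate for 1 of 18209. With lane as a covariate 6 genes in all were called with age in Fmn2+/+ and 0 in Fmn2-/- mice.

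At 4 months 22 of 28 other rapid response genes had fold changes below 0 in APP mice, at a median of -0.26, where 50.2% of all genes were below 0 and 2.34% were called. Of these 28 genes 1 was called, the stress-induced Atf3, which rose by 1.16 on the log2 scale (SE 0.23, edgeR adjusted p = 0.00461). All 15 feedback genes were below 0 (median -0.16, 0 called), and 17 of 20 later effectors were below 0 (median -0.25). Of these the neuronal pentraxin Nptx2 fell by 0.57 (SE 0.1, edgeR adjusted p = 0.00178). The ETS factor Elk3 rose by 0.52 (SE 0.078, edgeR adjusted p = 0.000319), 1 of 26 pathway genes. In the 3-month Fmn2 comparison and the APP cross none of the listed genes was called, against 0.0301% and 0.774% of all genes.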

How the data were processed

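RNA was extracted with TRIzol, made into TruSeq libraries, aligned to mm10 with STAR and counted per gene with HTSeq by the authors, who deposited raw read counts for 48 sequencing runs of 46 mice, unnormalized and not pooled. The 2 runs of each mouse sequenced more than once were summed. These 2 runs had different lane numbers, and the sum was taken as lane 7 wherever lane was used. Of 48709 genes, 48349 matched the annotation used for symbols, exon lengths and GC. Counts were normalized with TMM and tested with edgeR 4.0.16 (R 4.3.3, filterByExpr, quasi-likelihood), at an adjusted p under 0.05. DESeq2 1.42.0, RLE scaling, no filter, length and GC offsets, lane as a covariate, equal depth, summed similar libraries, the replicate block and leaving out each mouse were alternatives, and leaving out libraries high in choroid plexus markers was added after seeing the data. The scripts were tested on simulated counts. Spread and correlations used log2 CPM with a prior count of 0.5. Promoter windows are from RefSeq. The members and lists were chosen with earlier results of these data known. Genes of other lists were named where called, and the 10 genes most like the members by r. Replicate numbers were not taken to pair mice. The replicate block used only mice whose number occurred in both groups compared. The mean correlation of same-numbered mice was 0.0407 at 3 months, -0.00845 at 8 months, 0.0821 in the cross and 0.021 at 4 months. Differently numbered mice had -0.00767, 0.00212, -0.0103 and -0.00412 in that order. In the cross the number also went with lane in both groups.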

Additional observations from a re-analysis of the deposited data

Results flagged for a closer look

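Single mice far above the rest of their group were seen in 16 of 70 combinations of a member and a group of 5 to 9 mice (22.9%). The rule was a gap of the highest or lowest value that normally distributed values would pass in about 5% of groups. In all 16 it was the highest value. The gap was taken on CPM and not on a log scale, and CPM is skewed to high values. Neither the 22.9% nor the direction is therefore shown to exceed chance. The members vary together, so these are not 16 separate events.

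Replicate 6 of the 4-month wild type mice stood apart in 7 members: Fos at 104.8 CPM (next 36.1), Fosb at 45 (22.4), Junb at 76.9 (34.7), Egr2 at 42.5 (13.2), Npas4 at 72.1 (35.2), Dusp1 at 82 (42.9) and Ier2 at 13.4 CPM (6.43). Replicate 7 labelled FMN2-/-_APP stood apart in Fos at 24 CPM (next 9.89), Npas4 at 9.51 (5.43) and Dusp1 at 17.2 CPM (12.2).

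Replicate 3 of the 3-month Fmn2+/+ mice stood apart in Egr2 at 16.5 CPM (next 5.67) and Fosb at 13.8 CPM (9.05). Replicate 4 of the 8-month Fmn2-/- mice did so in Egr2 at 2.63 CPM (1.05) and Fosb at 8.14 CPM (5.26). Single members were Dusp1 at 41.9 CPM (next 24.5) in 3-month Fmn2-/- replicate 2 and Egr2 at 11.1 CPM (5.05) in replicate 8 labelled FMN2 +/+ APP. No member was called in the interaction test, which does not show that the age effects are alike in the genotypes.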

How the results depend on the processing

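Depth limits Egr2 and Ier2 most, with 5 to 32 and 15 to 39 counts in the 8-month Fmn2-/- mice. The 3 8-month Fmn2+/+ mice limit the age contrast in Fmn2+/+ mice and the interaction. Of 1049 tests of a genotype effect or its interaction on a member under an alternative, 0 were called, the smallest adjusted p being 0.0712 by edgeR for Egr1 in APP mice without wild type replicate 4. Of the members' fold changes under leave-one-out fits 923 kept direction and call, 46 changed direction, 8 gained and 23 lost a call, and under other settings 552, 34, 10 and 13. All 10 members stayed below 0 with age in both genotypes under every alternative run.

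Members called with age in Fmn2+/+ mice (6) ranged over leave-one-out fits from 0 to 7, with 0 with lane as a covariate, 9 with the replicate block and 9 with the replicate block and GC offsets. In Fmn2-/- mice (2) they ranged from 0 to 3 over leave-one-out fits, with 0 with GC offsets, 1 with the replicate block, 0 with the replicate block and GC offsets and 0 with lane. The cause was not tested. The block fits with age kept only replicate numbers found at both ages, 3 against 3 mice in Fmn2+/+ and 4 against 4 in Fmn2-/-. Each was fitted on 1 genotype alone, so the mice and the fit changed along with the block. Same-numbered mice are not known to share more than a number, and in the cross they also share a lane number. Counts over all genes by leave-one-out and by other settings ran from 3 to 49 and 3 to 90 at 3 months (5), 4 to 3087 and 4 to 1124 at 8 months (166), 8 to 2791 and 0 to 1406 for the interaction (635), 469 to 2994 and 6 to 1989 with age in Fmn2+/+ (1570), 746 to 1239 and 0 to 1232 with age in Fmn2-/- (1097), 73 to 171 and 56 to 359 in the cross (129) and 365 to 418 and 379 to 500 at 4 months (392).

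The log2 fold changes that turned sign, with 0 members called in either direction, were these. At 3 months Fosb was 0.04 with lane. At 8 months Arc was -0.01 with similar libraries summed, Fosb 0.03 at equal depth, and Npas4 0.01 by DESeq2, 0.13 at equal depth and 0.04 with lane, where Egr2 was -0.08 and Fos -0.18. With GC offsets there Dusp1 was 0.0048, Ier2 0.12 and Npas4 0.07. With the replicate block Egr2 was -0.39 and Npas4 0.09, and with the replicate block and GC offsets Dusp1 was 0.04, Egr2 -0.37, Ier2 0.28, Junb 0.04 and Npas4 0.19. In the cross the replicate block gave 0.17 for Arc and 0.11 for Nr4a1, with GC offsets 0.21 and 0.15, lane gave 0.05 for Arc, and Fosb was -0.04 with GC offsets and -0.05 without the choroid plexus libraries. For the interaction the replicate block gave -0.07 for Fosb and -0.02 for Ier2, lane -0.29 and -0.06, and Ier2 was -0.01 with similar libraries summed, -0.10 at equal depth and -0.04 without the choroid plexus libraries. Junb was 0.16 with GC offsets and 0.12 with the replicate block and GC offsets. Of called list genes, Mrtfa was 0.04 with lane in Fmn2-/- mice and the interaction of Jund 0.02 with GC offsets, neither called.

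Leave-one-out ranges that crossed 0 were, at 3 months, -0.47 to 0.01 for Arc, -0.41 to 0.07 for Ier2 and -0.26 to 0.08 for Junb. At 8 months they were -0.02 to 0.26 for Arc, -0.36 to 0.36 for Dusp1, -0.16 to 0.70 for Egr2, -0.17 to 0.88 for Fos, -0.26 to 0.14 for Fosb, -0.40 to 0.06 for Ier2 and -0.24 to 0.19 for Npas4. In the cross they were -0.15 to 0.17 for Arc, -0.05 to 0.34 for Egr1, -0.16 to 0.11 for Fosb, -0.15 to 0.04 for Junb, -0.51 to 0.02 for Npas4 and -0.25 to 0.05 for Nr4a1. For the interaction they were -0.05 to 0.68 for Dusp1, -0.04 to 0.35 for Fosb and -0.28 to 0.34 for Ier2, and at 4 months -0.44 to 0.04 for Ier2 and -0.44 to 0.24 for Junb.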

Other observations

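Replicates 2 and 3 of the 8-month Fmn2-/- mice were the most alike pair of libraries, with a chi-square of 1.62 per degree of freedom over 14441 genes, where the next lowest pair had 3.5. Their members were alike too, with Fos at 10.1 and 9.38 CPM, Egr1 at 76.0 and 74.6 CPM and Arc at 79.2 and 76.8 CPM. The labels give them as separate samples and they were kept as 2 mice, and whether they share a source was not tested. Summed as 1, they left 2 members called with age in Fmn2-/- mice.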
